A study of Mus musculus with 29 samples.

Results

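Mouse embryonic stem cells of the line HRHnG were compared with stem cells of 3 other lines in the same medium, on single-colour Agilent expression arrays. The members were chosen by sample title and line, and number 6 of the 29 arrays of the series. The ESC group is undifferentiated HRHnG cells, 3 arrays of this 1 line. The 2iL group is undifferentiated cells adapted to the medium for at least 3 passages, with 1 array each of HVMC (2iL 1), E14 (2iL 2) and E14-NanogGFP (2iL 3). Per the labels all 6 samples are from male cells, and all were grown in 2i with LIF. This medium holds a pair of inhibitors, against the kinases MEK and GSK3, together with the cytokine LIF. The passage number of the HRHnG cells, the background strain of each line and the meaning of the letters HRHnG are not given in the sources used here. The other 7 groups enter only where a value across all arrays is given. They are HRHnG cells after 7 to 8 days in Activin, CHIRON and LIF (Diff), endoderm cultures passaged from them (Mid and Late), EpiSC and their ADE derivatives of the same line (spelled HRHNG), XEN cells of their own line, and NACL cultures of HVMC, E14 and E14-NanogGFP.

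Stem cells in 2i with LIF are held in naive pluripotency, the state of the early epiblast. Inhibition of MEK keeps signals of fibroblast growth factor from driving differentiation, inhibition of GSK3 relieves repression of naive genes by the factor Tcf3, and LIF acts through the kinase JAK and the factor STAT3. In this medium DNA methylation is known to be low, and imprinted genes, which are expressed from the maternal or the paternal chromosome only, are known to lose their marks in some cultures. Lines of different origin may also differ in genotype and in chromosomes gained or lost in culture.

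Line and array set differ together. All ESC arrays belong to a first set of 15 arrays and all 2iL arrays to a second set of 14, with no shared slide, scan day or version of the scanner software. A difference between HRHnG and the other lines therefore cannot be told apart from a difference between array sets. ESC 1 and 2 were on slide 1 and scan day 1 and ESC 3 on slide 2 and scan day 2, while 2iL 1 and 2 were on slide 5 and 2iL 3 on slide 6, all on scan day 3. The 2iL arrays are 3 lines and not replicates of 1 culture, and nothing states whether the ESC arrays came from separate cultures. The p-values therefore measure only the spread between arrays within groups. That spread is pooled over all 9 groups of the 29 arrays. The share of probes well above background was 58.0% to 70.6% on the ESC arrays and 56.8% to 68.0% on the 2iL arrays. The 75th percentile of the signal was 139 to 268.9 intensity units on the ESC arrays and 192.9 to 231 on the 2iL arrays. The number of arrays limits the precision. Levels below are log2 signals relative to the 75th percentile of the same array, and a difference is the ESC mean minus the 2iL mean on that log2 scale.

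Whole chromosomes stood apart on single arrays of the other lines, and also on HRHnG arrays outside the ESC group. For each array, the deviation of a gene from its mean over the 6 arrays was taken, and its median over a chromosome was set against the median over all autosomal genes. On chromosome 8 this value was -0.03, -0.12 and -0.11 on the ESC arrays, against -0.19 on 2iL 1, 0.24 on 2iL 2 and 0.20 on 2iL 3. On chromosome 6 it was between -0.09 and -0.04 on the ESC arrays, against 0.32 on 2iL 2 and -0.09 and -0.01 on the other 2iL arrays. The same chromosomes in the NACL cultures did not follow the line labels. Chromosome 8 was at 0.29 and 0.32 on both HVMC arrays in NACL, although the HVMC array in 2i with LIF was low. For the line E14, chromosomes 6 and 8 were at -0.14 and -0.13 in NACL, although both were high in 2i with LIF. The array labelled E14-NanogGFP in NACL was at 0.26 on chromosome 6 and 0.21 on chromosome 8, of which 2iL 3, with the same label, showed only the second. Among HRHnG arrays, chromosome 19 was at 0.21 to 0.45 on the Mid and Late arrays. Chromosome 13 was at -0.32 and -0.50 on Mid 1 and 2. The ESC and 2iL arrays themselves set the mean from which deviations were taken, which holds their values nearer to 0. DNA copy number was not measured, and the line names of the 2iL and NACL arrays are used below as labels only.

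**Figure D1:**
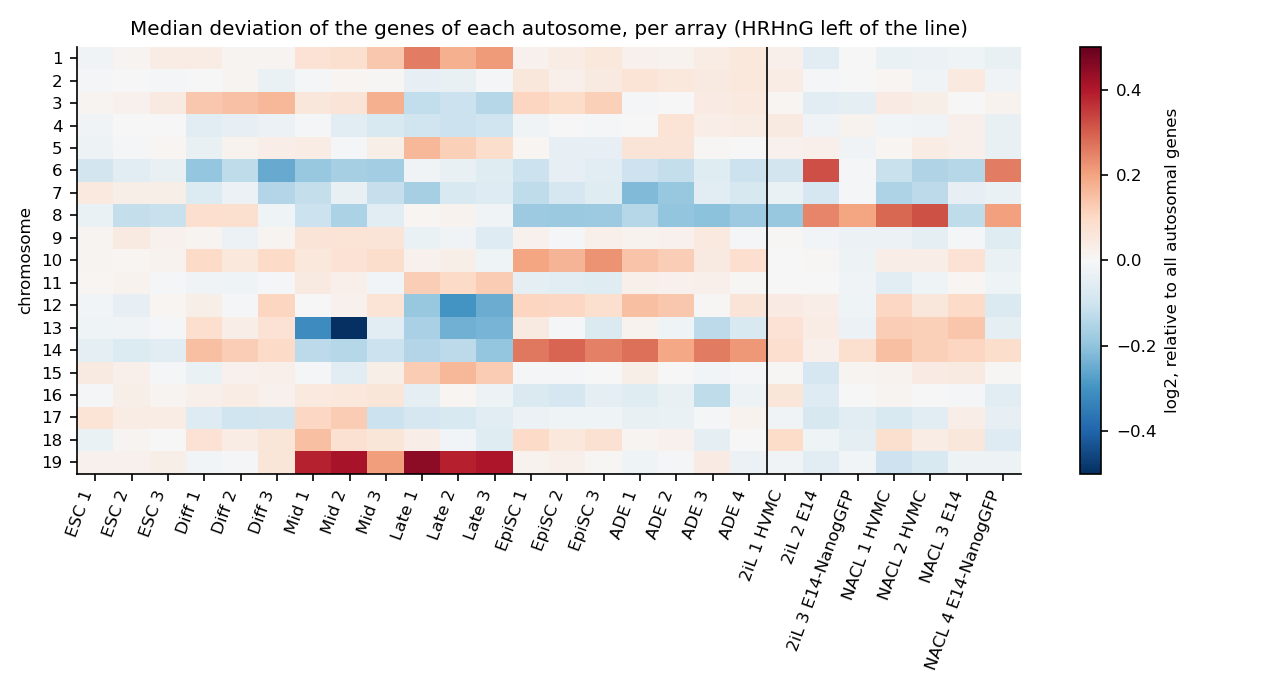
Median deviation of the genes of each autosome (rows) on each array (columns, HRHnG left of the line, with XEN left out), in log2 relative to all autosomal genes of the array. Chromosome 6 is raised on 2iL 2 and NACL 4, chromosome 8 on 2iL 2, 2iL 3 and NACL 1, 2 and 4. Among HRHnG arrays, chromosome 19 is raised on Mid and Late. The 3 ESC arrays, which help to set the mean, lie within 0.12 of 0 on every autosome.

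Of 14123 autosomal genes tested, 1706 (12.1%) differed between HRHnG and the other lines, with 415 higher in HRHnG (2.94%) and 1291 lower (9.14%), at an adjusted p under 0.05 by limma with Benjamini-Hochberg adjustment over all genes tested. To be tested, a gene needed a probe that rose well above background on all 3 ESC arrays or on all 3 2iL arrays. The split between directions depends on the scaling: 24.3% of called genes were higher in the scaling used here, 5.52% with each array centred on its median, 34.9% after quantile normalization and 44.3% in the authors' series matrix. Centring on the median lowered the median difference of all autosomal genes to -0.34, against -0.09 here, so single differences are best read against those values. Differences of over 1 log2 unit were seen for 209 higher and 651 lower genes, and differences of over 2 units for 23 and 232. The ESC and 2iL arrays did not overlap for 5132 genes tested (36.3%), and for 1635 of those called.

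The calls leaned on single arrays. Without ESC 1, ESC 2 or ESC 3, 847, 821 and 1013 genes were called. Without 2iL 2, the E14 array, 837 (5.93%) were called, 221 higher and 616 lower, against 1257 without 2iL 1 and 1466 without 2iL 3. Among genes called lower in HRHnG, 62.0% had their highest 2iL level on 2iL 2. Chromosome 14 held the largest share of called genes, with 20.8% of its 501 genes. Chromosomes 8, 6 and 15 followed with 14.8% of 772, 14.5% of 716 and 14.5% of 586. Without 2iL 2 the shares of chromosomes 14, 8, 6 and 15 were 9.98%, 6.09%, 6.84% and 6.83%. On chromosome 14 the calls were mostly lower, 87 against 17 higher, and the lower calls were fewest in the first of 4 equal parts by gene order. That part held 8 of 125 genes called lower, against 24, 31 and 24 of 125 to 126 in the following parts. In the third part the ESC arrays were at -0.08, -0.20 and -0.20 and the 2iL arrays averaged 0.16. Diff averaged -0.16, Mid -0.44 and Late -0.51 there, while EpiSC and ADE of the same line averaged 0.29 and 0.06.

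**Figure D2:**
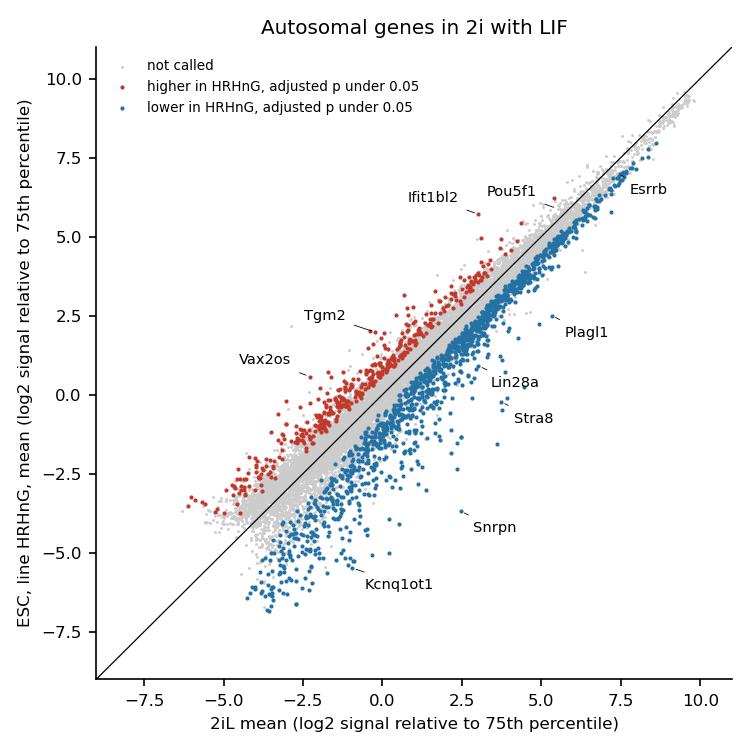
Mean log2 level of each autosomal gene tested on the ESC arrays (vertical) and on the 2iL arrays (horizontal), each relative to the 75th percentile of the array. Red and blue points are the 415 genes called higher and 1291 called lower in HRHnG; Snrpn lies farthest below the diagonal among called genes, while Pou5f1 and Esrrb lie near it.

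The largest difference among genes called was in an imprinted gene. Snrpn, a paternally expressed splicing protein gene of chromosome 7, had levels of -3.46, -3.89 and -3.71 in HRHnG, against 1.44, 3.31 and 2.64 in 2iL. All ESC arrays were far below all 2iL arrays, a difference of -6.15 ± 1.29 (SE) or 70.9-fold, adjusted p = 0.0038 by limma. Under normexp and in the series matrix the difference was smaller, -3.91 in both, and was called. A second Snrpn probe, well above background on no ESC array and on all 2iL arrays, differed by -7.28. Snrpn was below the 2iL levels on every other HRHnG array as well, on both array sets. EpiSC, on the same array set as 2iL, had levels of -4.92, -4.09 and -3.97, and ADE had -5.72, -5.95, -4.19 and 0.79. Diff had -0.20, 0.16 and -4.26, and Mid and Late ranged from -6.37 to -2.30 and from -5.77 to -3.29. The NACL cultures of the other lines had 3.21, 2.87, 2.78 and 3.04, and XEN had -0.47, -0.76 and -1.10. The EpiSC and ADE arrays belong to the second array set but hold cells of another state. ADE 4 (0.79), Diff 1 (-0.20) and Diff 2 (0.16) were above all XEN arrays, so the level was not evenly low in HRHnG. Whether line or array set underlies the difference was not tested.

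Of 24 genes listed as expressed from the paternal chromosome, 19 were tested. Of these, 5 (26.3%) were lower in HRHnG and 0 higher, against 12.1% of all autosomal genes called. The median difference was -0.73 against -0.09 for all autosomal genes. Without 2iL 2, 3 of the 19 were called, and over all alternatives 2 to 5. The promoters of the 3 with the largest differences are shown, from 250 bases before to 50 after a start, because these genes are controlled by marks at or near their starts. The sequences are from RefSeq (GRCm38.p6), 5′ to 3′ on the strand of the gene, while the probe design names build mm9. Capitals mark TGCCGC on either strand, the letters that the factor ZFP57 is known to read at imprinted regions.
Snrpn, chr7:60005150-60005449, minus strand: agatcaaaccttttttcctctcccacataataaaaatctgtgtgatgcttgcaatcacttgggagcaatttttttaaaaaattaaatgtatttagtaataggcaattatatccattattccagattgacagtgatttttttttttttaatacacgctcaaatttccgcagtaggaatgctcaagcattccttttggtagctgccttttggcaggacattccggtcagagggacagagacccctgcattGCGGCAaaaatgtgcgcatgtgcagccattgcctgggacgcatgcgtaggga
Kcnq1ot1, chr7:143296498-143296797, minus strand: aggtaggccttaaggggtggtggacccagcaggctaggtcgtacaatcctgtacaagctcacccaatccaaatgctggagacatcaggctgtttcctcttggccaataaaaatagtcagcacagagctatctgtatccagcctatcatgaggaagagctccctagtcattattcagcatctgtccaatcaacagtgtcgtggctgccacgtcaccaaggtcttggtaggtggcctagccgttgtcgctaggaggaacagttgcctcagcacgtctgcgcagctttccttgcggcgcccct
Plagl1, chr10:13090582-13090881, plus strand: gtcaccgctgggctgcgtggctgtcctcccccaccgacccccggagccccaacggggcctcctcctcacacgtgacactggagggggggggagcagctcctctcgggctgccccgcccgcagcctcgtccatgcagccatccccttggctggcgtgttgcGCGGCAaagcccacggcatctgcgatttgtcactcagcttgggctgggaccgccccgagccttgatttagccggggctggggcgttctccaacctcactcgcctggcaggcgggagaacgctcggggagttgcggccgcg
For Snrpn, which has 4 starts in the table, the one with the most CG pairs is shown. These windows hold 7, 9 and 26 CG pairs, against a median of 7 over 32851 promoters of the same length (quartiles 3 and 20). The motif occurred 1 time in Snrpn and 1 time in Plagl1 and was not in the Kcnq1ot1 window. Among the remaining called genes it was found 2 times in the Mest window with 17 CG pairs and was not in the Peg12 window with 12. It is held by 11.6% of all these promoters. Methylation was not measured.

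Kcnq1ot1, the paternally expressed antisense RNA that silences its neighbours on chromosome 7, had levels of -3.32, -5.86 and -7.27 in HRHnG, against -1.24, -0.90 and -0.70 in 2iL. Only 1 of the 3 ESC arrays was well above background, so the difference of -4.53 ± 1.06 (adjusted p = 0.008) is less certain. The EpiSC arrays had -7.14 to -6.35 and the ADE arrays -6.98 to -6.26, whereas Diff 1 and 2 had -1.07 and -1.04 and Late had -1.52 to -0.46. The gene was thus not low on every HRHnG array. Plagl1, a zinc finger factor of a network of imprinted growth genes, had 3.23, 2.46 and 1.80 in HRHnG, against 4.84, 5.54 and 5.60 in 2iL. The groups did not overlap, with a difference of -2.83 ± 0.84 and an adjusted p of 0.031. Its 3 other probes differed by -2.93, -1.08 and -0.10. Kcnq1ot1 was not called without ESC 3 (adjusted p = 0.053), nor Plagl1 without ESC 2, ESC 3, 2iL 2 or 2iL 3 (adjusted p up to 0.11).

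Mest, a paternally expressed hydrolase gene, had 0.52, 0.40 and 0.31 in HRHnG, against 1.59, 3.85 and 2.93 in 2iL (adjusted p = 0.047). Mest lies on chromosome 6, which was raised on 2iL 2, and without that array the difference was -1.85 with an adjusted p of 0.21. The part of the chromosome in this difference was not tested. EpiSC and ADE of the line HRHnG had higher levels, 2.68 to 4.56 and 5.97 to 6.61. Peg12, an intronless gene of the same cluster as Snrpn, had -3.22, -3.54 and -2.32 in HRHnG, against -1.01, -1.87 and -0.19 in 2iL (4.01-fold lower, adjusted p = 0.029). Its second probe differed by 0.08, so its probes disagree. Of the neighbours of Snrpn in that cluster, Ndn differed by -0.58 (adjusted p = 0.19) and Magel2 was not called (adjusted p = 1.0). Mest was not called without ESC 1, ESC 2, ESC 3, 2iL 2 or 2iL 3 (adjusted p up to 0.21), nor Peg12 without ESC 1, ESC 2, 2iL 1 or 2iL 3 (adjusted p up to 0.11).

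Among 10 tested genes expressed from the maternal chromosome, 1 (10%) was called, against 12.1% of all autosomal genes. Slc22a18, a transporter gene in the domain silenced by Kcnq1ot1, had 2.20, 2.25 and 1.37 in HRHnG, against 1.53, -1.06 and -0.37 in 2iL. HVMC overlapped with HRHnG, and the difference of 1.91 ± 0.58 (adjusted p = 0.034) was 1.36 without 2iL 2 (adjusted p = 0.20). In the same domain Cdkn1c, a cell cycle inhibitor, had -0.11, -0.28 and 0.24 against 0.17, -2.69 and -1.83 (adjusted p = 0.24). Phlda2, a growth restraint of the placenta, had -0.68, -0.61 and -0.48 against 1.51, -3.01 and -1.29 (adjusted p = 0.84). The HVMC array was thus the highest of the other lines for these 3 genes. Slc22a18 was not called without ESC 1, ESC 2, 2iL 2 or 2iL 3 (adjusted p up to 0.2).

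**Figure D3:**
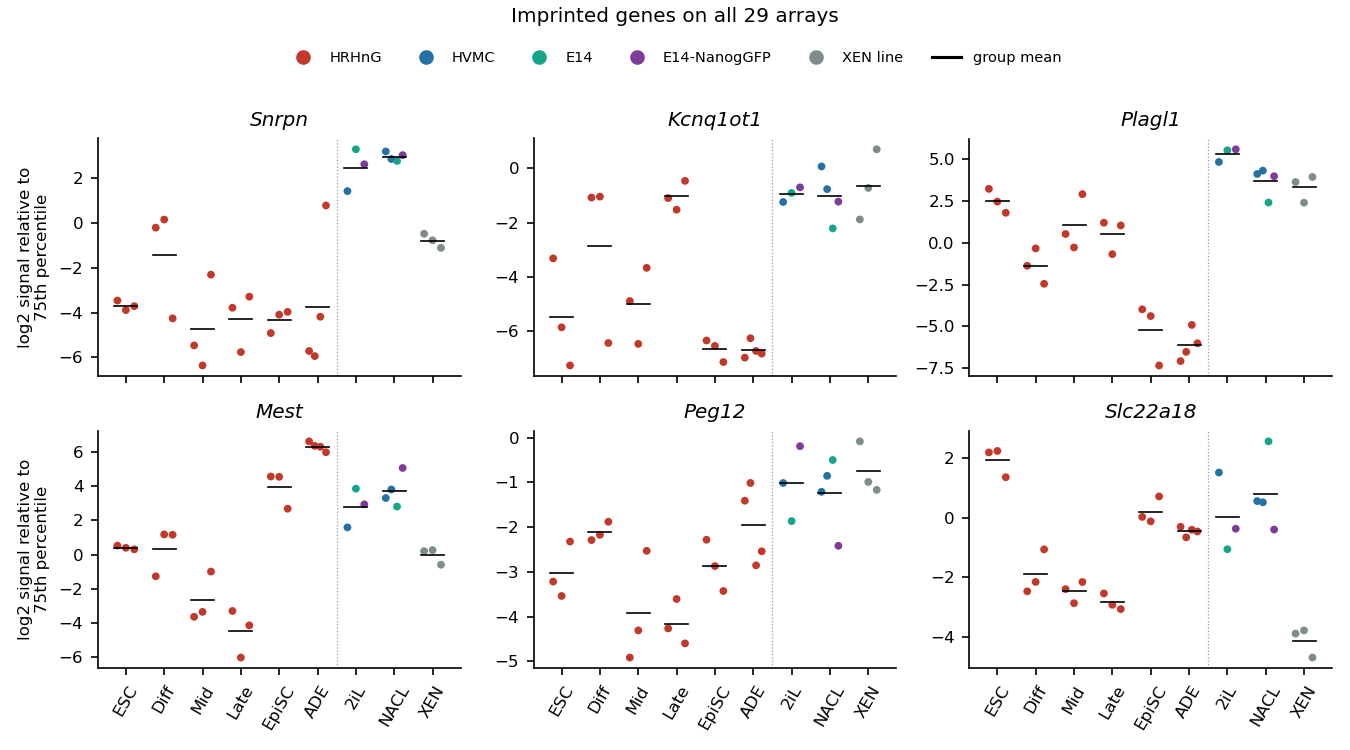
Log2 level of 6 called imprinted genes on each of the 29 arrays, by group, with HRHnG groups left of the dotted line and bars at group means. Snrpn is below all 2iL and NACL arrays on every HRHnG array; Kcnq1ot1 reaches the levels of the other lines on Diff 1, Diff 2 and the Late arrays.

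Of 11 genes of the DNA methylation machinery, all tested, 2 (18.2%) were lower in HRHnG and 0 higher, against 12.1% of all autosomal genes called. The median difference was -0.09, as over all autosomal genes. Dnmt3b, a de novo methyltransferase, had 3.53, 3.37 and 3.27 in HRHnG, against 4.66, 5.21 and 4.55 in 2iL (adjusted p = 0.017). Dnmt3l, its cofactor, had 2.51, 2.01 and 1.50 against 3.19, 5.20 and 3.48 (adjusted p = 0.035). Both were lower on every ESC array than on any 2iL array. Zfp57, which guards imprints, had 3.58, 3.02 and 2.61 in HRHnG, against 2.11, 2.58 and 1.46 in 2iL, and was not called (difference 1.02 ± 0.36, adjusted p = 0.064). Zfp57 was called higher after quantile normalization (1.17, adjusted p = 0.031), under normexp (1.21, adjusted p = 0.0048) and in the series matrix (1.03, adjusted p = 0.019). A second Zfp57 probe, well above background on all ESC and 2iL arrays, differed by only 0.33, and the groups overlapped on it. The maintenance methyltransferase Dnmt1 differed by 0.34 and its partner Uhrf1 by -0.27 (adjusted p = 0.37 and 0.56), and the sign of Uhrf1 turned under the other scalings apart from median centring. Dnmt3b was not called without ESC 2, ESC 3 or 2iL 2 (adjusted p up to 0.088), nor Dnmt3l without ESC 1, ESC 2, ESC 3 or 2iL 2 (adjusted p up to 0.21).

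The genes highest in HRHnG relative to the other lines were a mixed set. These, and the lowest genes such as Snrpn and Stra8, were chosen for no overlap between the ESC and 2iL arrays. Vax2os, a noncoding RNA opposite the homeobox gene Vax2, had levels of 1.12, 0.60 and -0.01 in HRHnG, against -2.61, -2.78 and -1.44 in 2iL. The groups were far apart, a difference of 2.85 ± 0.52 or 7.20-fold (adjusted p = 0.0015). A second Vax2os probe, brighter on all 6 arrays, differed by only 1.03, so the size rests on the probe. Slc25a27, a mitochondrial carrier, had -0.19, -0.18 and -0.24 against -2.52, -3.08 and -3.47, with the HRHnG arrays nearly equal. Zfr2, a zinc finger RNA-binding protein, differed by 2.69 ± 0.63 and Tgm2, a transglutaminase that cross-links proteins, by 2.20 ± 0.39. Slc11a1, a metal ion transporter of phagocytes, had 3.62, 2.99 and 2.86 against 0.04, 1.46 and 0.56. Slc11a1 was not called without ESC 1, ESC 2, ESC 3, 2iL 1 or 2iL 3 (adjusted p up to 0.1).

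For some of these genes the other lines were far apart among themselves. Ifit1bl2, of a family of interferon-induced genes with near-identical copies, had 4.97, 5.61 and 6.55 in HRHnG, against 4.55, 3.45 and 1.06 in 2iL. Mbnl2, a splicing regulator, had 2.04, 2.11 and 1.84 against 0.80, 0.17 and -2.19. HVMC lay nearest to HRHnG for both genes. Camk2n1, an inhibitor of the kinase CaMKII, had 0.67, 0.87 and 0.64 against -0.86, -3.07 and -1.17. The remaining genes of the 12 highest were Slc9b2, a sodium and proton exchanger, the peptide transporter Slc15a2, the phosphodiesterase Pde5a and the spindle protein Sfi1, with differences of 2.16 to 2.31. Camk2n1 was not called without ESC 1, ESC 2, ESC 3 or 2iL 2 (adjusted p up to 0.19), nor Slc9b2 without ESC 1, ESC 2, ESC 3, 2iL 1 or 2iL 3 (adjusted p up to 0.16). Sfi1 was not called without ESC 3 or 2iL 3 (adjusted p up to 0.066).

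A germ cell gene was also among those lowest in HRHnG. Stra8, which is induced by retinoic acid and needed for entry into meiosis, had -1.72, -0.21 and 1.26 in HRHnG, against 1.87, 5.60 and 3.73 in 2iL. All ESC arrays were below all 2iL arrays, a difference of -3.96 ± 0.80 or 15.6-fold (adjusted p = 0.0031), though each group spread widely. Stra8 lies on chromosome 6, which was at 0.32 on 2iL 2, and 2iL 2 was the highest array. Of all genes called lower, 62.0% had their highest 2iL level on that array. The part of chromosome 6 in the Stra8 difference was not tested.

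Arhgef26, a guanine nucleotide exchange factor, had -3.91, -2.81 and -2.13 in HRHnG, against 0.98, 1.24 and -0.57 in 2iL (adjusted p = 0.00013). Hal, the enzyme that breaks down histidine, had -2.27, -2.10 and -2.24 against 0.56, 2.57 and 0.25. For both, all ESC arrays were below all 2iL arrays, as the rule for choosing these genes required. Nefh, a neurofilament subunit, had -0.25, -0.18 and 0.07 against 1.96, 4.07 and 2.44, and its second probe differed by -1.85. Other genes among the lowest, with differences of -3.26 to -2.90, were the myosin Myo1f, the amino acid transporter Slc43a1, the crystallin Cryge, the peptidase Dpp4 and the chemokine Cx3cl1. Cryge was not called without ESC 1, ESC 2, 2iL 2 or 2iL 3 (adjusted p up to 0.093).

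**Figure D4:**
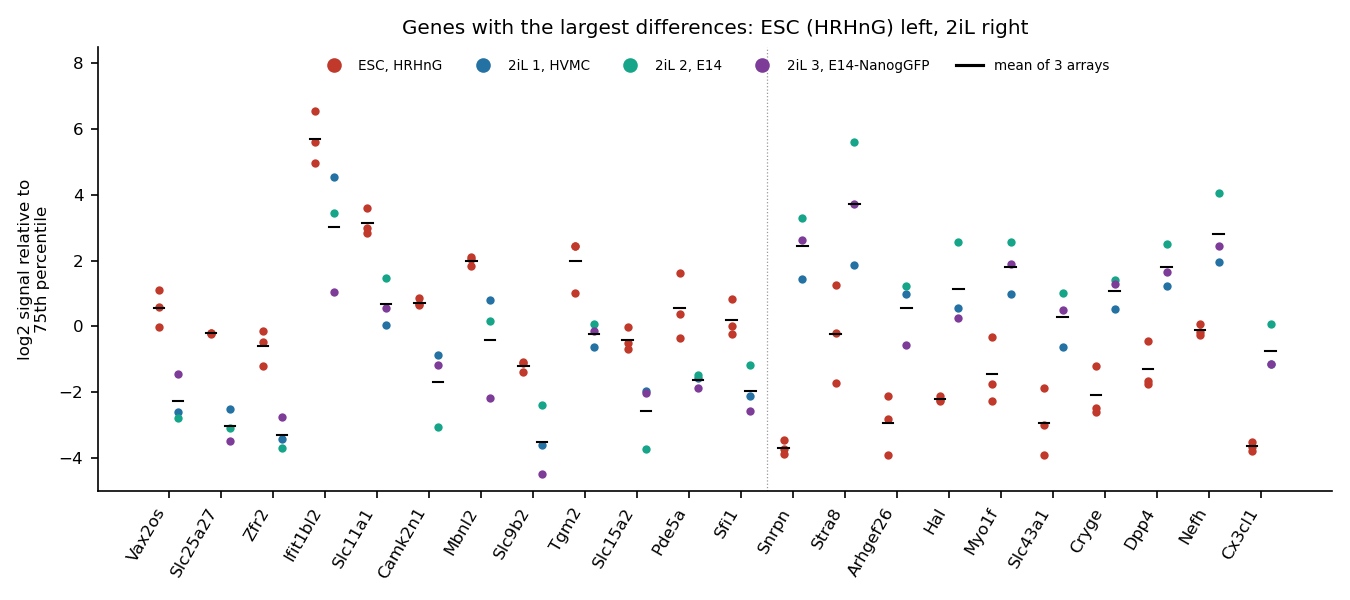
Log2 level of the 12 genes with the largest positive differences and of 10 of the 12 with the largest negative differences among genes well above background on all 6 arrays, with the ESC arrays left and the 2iL arrays right at each gene. The 2 groups do not overlap for any of these genes, as the rule for choosing them required.

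Some called genes were well above background on all arrays of 1 group and on none of the other. There were 7 such genes in HRHnG only and 43 in 2iL only. For these the fold is a lower limit, using for a dim array its own signal or, if greater, the lowest signal that was well above background there. Among genes above background in HRHnG only, Lbh, a transcription cofactor, was at least 3.65-fold higher (adjusted p = 0.042), Enpp5 at least 3.34-fold and the vesicular monoamine transporter Slc18a2 at least 2.66-fold. Tmem176b was at least 6.11-fold lower in HRHnG, Bves, a membrane protein of muscle and epithelium, at least 5.82-fold and the homeobox factor Evx1 at least 4.49-fold. Levels of Evx1 in 2iL were -2.25, -1.78 and -4.10, near the lower end of what was detected. These limits hold for the scaling used here. Under normexp the differences were 0.26 for Lbh, 0.26 for Enpp5 and 0.22 for Slc18a2, and -0.67 for Tmem176b, -0.87 for Bves and -0.65 for Evx1, and none of the 6 was called (adjusted p 0.053 to 0.46). Lbh was not called without any of the 6 arrays (adjusted p up to 0.12), nor Slc18a2 without ESC 1, ESC 2, 2iL 2 or 2iL 3 (adjusted p up to 0.094).

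Naive pluripotency genes were high in both groups, and of 19 tested 0 were called in either direction, with 0 of 19 also when any of the 6 arrays was left out. The median of their differences was -0.27, against -0.09 for all autosomal genes, and under the other scalings it lay between -0.51 and -0.03. Called genes under other settings were at most 2 higher and 1 lower. Esrrb, a nuclear receptor of the naive network, had 6.96, 7.18 and 6.90 in HRHnG, against 7.41, 7.36 and 7.38 in 2iL, and Zfp42 had 6.63, 6.32 and 6.78 against 6.77, 7.48 and 6.84. Nanog had 4.28, 4.19 and 4.00 in HRHnG, against 3.80, 2.47 and 3.41 in 2iL, without overlap (difference 0.93 ± 0.77, adjusted p = 0.45). It was called higher under normexp (1.17, adjusted p = 0.044), while the sign turned in the series matrix (-0.38, adjusted p = 0.68). Gbx2, a target of LIF and STAT3, had 1.04, 0.87 and 0.60 against 2.59, 1.66 and 2.42 (adjusted p = 0.44), and was called when the 6 arrays were fitted alone (adjusted p = 0.038). The error of these genes is set by all 29 arrays, including cultures in which they vary strongly, so a p that misses the threshold does not show equal levels.

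Of 15 core pluripotency genes, all tested, 2 (13.3%) were lower in HRHnG and 0 higher, near the 12.1% called over all autosomal genes. Lin28a, the RNA-binding protein that blocks let-7 processing, had 1.26, 0.71 and 0.77 in HRHnG, against 2.42, 3.43 and 3.20 in 2iL. The groups were apart, a difference of -2.11 ± 0.28 or 4.31-fold (adjusted p = 0.0001). Gdf3, a ligand of the TGF-beta family, differed by -1.06 ± 0.28 (adjusted p = 0.018). The factors Pou5f1 and Sox2 had differences of 0.37 and -0.09 (adjusted p = 0.61 and 0.95), of which that of Sox2 turned its sign after quantile normalization, under normexp and in the series matrix, and Pou5f1 was at 5.90, 5.84 and 5.90 in HRHnG, against 5.50, 5.77 and 5.26 in 2iL. Gdf3 was not called without ESC 1, ESC 2, 2iL 2 or 2iL 3 (adjusted p up to 0.076).

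The median difference of 16 tested genes that mark the primed epiblast was -0.96. Of these genes 5 (31.3%) were called lower and 0 higher, against 12.1% of all autosomal genes called. Besides Dnmt3b the genes called lower were Zic2, Tcf15, Lef1 and Krt18. Zic2, a zinc finger factor, had -1.01, -1.09 and -1.57 in HRHnG, against 0.92, 1.10 and 1.02 in 2iL. Tcf15, a factor of early epiblast priming, had -0.44, -0.05 and -0.21 against 1.32, 2.21 and 2.02. Both were tight within each group and apart between them. Lef1, a partner of beta-catenin, had 0.09, -1.13 and -3.05 against 3.50, -1.74 and 2.41, so the groups overlapped through E14, and its call (adjusted p = 0.045) was lost under 10 of 18 alternatives. Otx2 differed by -0.07 and Pou3f1 by 0.30 (adjusted p = 0.97 and 0.62). 4 of the 16 were called lower without 2iL 2. Zic2 was not called without ESC 3 or 2iL 2 (adjusted p up to 0.058), nor Tcf15 without ESC 1, ESC 3 or 2iL 2 (adjusted p up to 0.082). Lef1 was not called without ESC 2, ESC 3, 2iL 1 or 2iL 3 (adjusted p up to 0.23), nor Krt18 without 2iL 3 (adjusted p = 0.06).

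Genes of the 2-cell stage, which a small fraction of stem cells expresses at any time, gave 5 calls among 8 tested of 17 listed. All 5 were lower in HRHnG, and the median difference of the 8 was -3.89. The share called was 62.5%, against 12.1% of all autosomal genes. Zscan4f, a telomere maintenance gene, had -3.91, -0.78 and -0.03 in HRHnG, against 4.84, 6.26 and -0.27 in 2iL. Tcstv3 had -6.66, -5.24 and -3.92 against -0.61, 2.14 and -4.28, and Tmem92 had -6.75, -4.82 and -3.62 against 0.34, 2.65 and -3.98. HVMC and E14 were thus high, while 2iL 3 lay within the range of HRHnG for each of these 3 genes. Tcstv3 and Tmem92 were well above background on only 1 ESC array each, and Pramel16, also called, on 0. They were tested because all 2iL arrays were above background, so the count, direction and median lean in part on that filter. The size of their differences is uncertain. In bulk samples, fewer cells of a type and less RNA per cell cannot be told apart. The count was 1 without 2iL 2 and 0 when the 6 arrays were fitted alone. Zscan4 and Pramel genes have near-identical copies, so single members are uncertain. Zscan4f was not called without ESC 1 or 2iL 2 (adjusted p up to 0.089), nor Tcstv3 without ESC 1 or 2iL 2 (adjusted p up to 0.064).

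Germline genes, many of which are silenced by promoter methylation outside germ cells, were lower in 3 of 19 tested (15.8%, against 12.1% of all autosomal genes called) and higher in 0, with a median difference of -1.05. Fkbp6, a piRNA pathway protein, had 0.38, -0.80 and -1.31 in HRHnG, against 2.10, 1.70 and 2.60 in 2iL (adjusted p = 0.0037). Dazl, an RNA-binding protein of germ cells, had 0.08, -0.24 and -1.04 against 1.62, 1.94 and 0.14, with E14-NanogGFP close to HRHnG. Tex19.1 differed by -1.45 ± 0.45 (adjusted p = 0.037). Under normexp and in the series matrix 9 were called lower, and without 2iL 2 it was 1. Dazl was not called without ESC 2, ESC 3, 2iL 1 or 2iL 2 (adjusted p up to 0.14), nor Tex19.1 without ESC 1, ESC 2, ESC 3, 2iL 1 or 2iL 2 (adjusted p up to 0.14).

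Of 13 genes of TGF-beta and BMP signalling, all tested, 5 (38.5%) were lower in HRHnG and 0 higher, against 12.1% of all autosomal genes called. The median difference was -1.08. The ligand Bmp4 had 1.74, 1.10 and 0.47 in HRHnG, against 3.57, 3.86 and 3.83 in 2iL, a difference of -2.65 ± 0.67 or 6.28-fold (adjusted p = 0.012). Its targets Id3 and Id2, which inhibit differentiation factors, and the inhibitor Smad6 were lower with it. Id3 had -0.43, -1.18 and -1.06 against 0.98, 2.46 and 1.48, without overlap, while Id1 differed by -1.08 and was not called (adjusted p = 0.25). The ligand Nodal differed by -0.35 (adjusted p = 0.67). Without 2iL 2 the count was 3. Bmp4 was not called without ESC 3 (adjusted p = 0.058), nor Id2 without ESC 1, ESC 2, 2iL 1 or 2iL 2 (adjusted p up to 0.17).

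Of 15 tested genes induced by ERK, 1 was called, Dusp6, a phosphatase that restrains ERK, with 0.33, 0.49 and -0.29 in HRHnG against 1.29, 1.79 and 1.25 in 2iL (adjusted p = 0.0061). That is 6.67% of the list, against 12.1% of all autosomal genes called. The median over these 15 genes was -0.72, with 13 of 15 below 0, against 8025 of all 14123 autosomal genes. Of 13 tested Wnt targets, Lef1 was the only one called (7.69%), and the median was -1.36. Axin2, the feedback inhibitor of Wnt signalling, differed by -2.04 and T by -2.01 without a call (adjusted p = 0.14 and 0.18). Up to 5 were called lower under the alternatives. Genes of LIF and STAT3 signalling had a median of 0.13, which was -0.11 with median centring, and 0 of 13 were called. Socs3, the feedback inhibitor of this pathway, differed by 0.46 (adjusted p = 0.50).

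Genes of antigen presentation were lower in HRHnG in 6 of 12 tested (50%) and higher in 0, against 12.1% of all autosomal genes called. The median difference was -0.88, against -0.09 for all autosomal genes. The class I heavy chain H2-K1 had 0.52, 0.90 and 0.72 in HRHnG, against 2.00, 2.77 and 2.67 in 2iL, a difference of -1.77 ± 0.33 or 3.41-fold (adjusted p = 0.0019). H2-D1 had -0.28, 0.17 and -0.05 against 1.07, 1.38 and 1.64, and the non-classical H2-T23 had -0.60, -0.40 and -0.28 against 0.80, 1.09 and 1.07. For all 3 the groups were apart. B2m, the shared light chain, and Psmb9, an immunoproteasome subunit, were called lower as well. H2-M3 was well above background on 1 of 3 ESC arrays, so it was tested only through the 2iL arrays. It was not called under normexp or in the series matrix. The class I genes are polymorphic and have near-identical copies, so a probe may bind the alleles of the lines unequally, which was not tested. The count was 3 without 2iL 2. Of 14 tested interferon-induced genes 1 (7.14%) was lower, the RNA sensor Ddx58 (difference -1.33 ± 0.38, adjusted p = 0.026, and -0.42 on a second probe). The transactivator Nlrc5 differed by 0.38 (adjusted p = 0.67). H2-M3 was not called without ESC 1, ESC 2 or 2iL 2 (adjusted p up to 0.23), nor Ddx58 without ESC 1, ESC 2, ESC 3, 2iL 1 or 2iL 2 (adjusted p up to 0.083).

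Of 20 tested cell cycle genes, 5 (25%) were lower in HRHnG and 0 higher, against 12.1% of all autosomal genes called. Differences were below 0 for 19 of them, and for 8025 of all 14123 autosomal genes tested. The list median was -0.48 here, -0.72 with median centring, and -0.25 to -0.22 under the other scalings. Cdk1, the mitotic kinase, had 2.67, 2.27 and 2.26 in HRHnG, against 3.56, 4.18 and 2.95 in 2iL, and its other probes differed by -2.25 and -0.38. Plk1, a mitotic kinase, differed by -0.94 ± 0.22 and Mcm5, of the replicative helicase, by -0.83 ± 0.24. The groups did not overlap for these, but Mki67 and Top2a, marks of cycling cells, differed by -0.14 and -0.12 (adjusted p = 0.69 and 0.75). Under the other scalings and without 2iL 2 only 1 or 2 of the 20 were called. Cdk1 was not called without ESC 2 or 2iL 2 (adjusted p up to 0.092), nor Mcm5 without ESC 2, ESC 3 or 2iL 2 (adjusted p up to 0.14).

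Stress and metabolism lists had few calls. The share called was 25% for heat shock and 16.7% for metal handling, against 12.1% of all autosomal genes. It was lower than that, 0% to 11.1%, in each other list given here. Of 8 tested heat shock genes, 2 were lower, the chaperones Dnajb1 (difference -0.75 ± 0.20) and Hspe1 (-0.72 ± 0.22), and at most 1 passed in any other scaling. Of 17 genes of the response to amino acid stress, the factor Ddit3 was higher, with 1.29, 1.87 and 2.19 in HRHnG against 0.43, -1.32 and 0.76 in 2iL (adjusted p = 0.040). Of 18 p53 targets, the polymerase Polk was higher by 0.94 ± 0.24 and the death effector Bax lower by -0.61 ± 0.18. Of 26 genes of glycolysis and hypoxia, the endoplasmic reticulum oxidase Ero1a was higher, at -0.27, -0.76 and -0.57 against -2.04, -1.61 and -1.88, and the kinase Pdk1 was lower, at 1.15, 0.65 and -0.09 against 1.98, 2.22 and 1.51. Of 22 detoxification genes, Gpx2, a glutathione peroxidase, was lower by -2.68 ± 0.65 (adjusted p = 0.010) and the aldo-keto reductase Akr1b8 by -1.47 ± 0.36. Of 13 genes of methionine and one-carbon metabolism, Mat2a, which makes the methyl donor S-adenosylmethionine, was lower by -1.09 ± 0.32 (adjusted p = 0.028). Of 12 metal handling genes, the zinc importer Slc39a10 was higher (0.92 ± 0.30) and the zinc exporter Slc30a2 lower (-0.87 ± 0.27). Each gene called in these lists was not called without at least 1 of the 6 arrays, from ESC 3 alone for Gpx2 (adjusted p = 0.072) to any array for Slc39a10 (adjusted p up to 0.14). Dnajb1, Hspe1 and Bax were not called under any other scaling, Mat2a was called only with median centring, and Ddit3, Polk, Slc39a10 and Ero1a were not called with median centring. In cholesterol synthesis, the unfolded protein response and immediate early genes, 0 of 20, 0 of 10 and 0 of 10 were called, with medians of -0.17, -0.10 and -0.24, of which that of the unfolded protein response was 0.07 after quantile normalization.

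**Figure D5:**
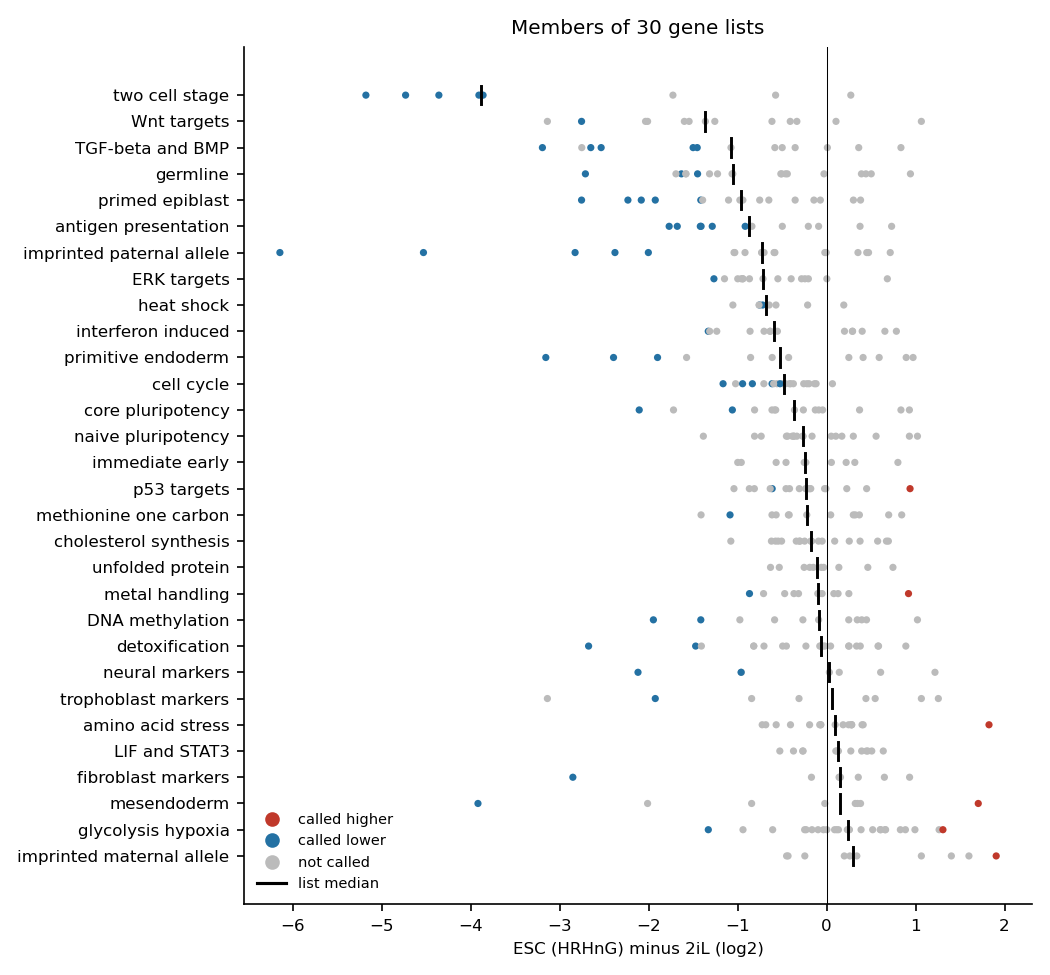
Difference of HRHnG minus the other lines (log2) for each tested autosomal member of 30 gene lists, ordered by list median (black bar). Called members are red where higher and blue where lower; the list medians run from -3.89 for the 2-cell-stage genes to 0.30 for genes expressed from the maternal chromosome, against -0.09 over all autosomal genes.

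Markers of other cell types were called at shares of 12.5% to 28.6% a list, against 12.1% of all autosomal genes. Of 12 tested primitive endoderm genes 3 were lower in HRHnG, while 7 of the 12 were below 0 and differences reached 0.97. After quantile normalization, with normexp and in the series matrix 2 of this list were called higher each time, with 4, 1 and 1 lower. The factor Sox17 was well above background on no ESC array and had -3.80, -3.37 and -3.77 in 2iL, at least 2.35-fold lower, a difference of -3.16 here but of -0.34 under normexp and -0.38 in the series matrix (adjusted p = 0.48 and 0.43). Hnf4a differed by -2.40 ± 0.59 and the endocytic receptor Lrp2 by -1.90 ± 0.48. Of 8 mesendoderm genes tested, Tbx6 was higher by 1.70 ± 0.51 and Evx1 lower. A second Tbx6 probe differed by 0.55, and the call of Tbx6 was lost with median centring, with normexp and in the series matrix (1.46, 0.77 and 0.68). Among neural genes, Tubb3, a neuronal tubulin, had 1.01, 0.36 and 1.09 in HRHnG, against 2.06, 3.09 and 3.68 in 2iL (adjusted p = 0.026), and Zic1 differed by -0.96 ± 0.30. Only 3 of the 7 neural genes tested were below 0, with a median of 0.03. Thy1, a surface protein of fibroblasts, was the 1 of 8 fibroblast genes called, at -2.52, -1.94 and -2.28 against 0.28, 0.50 and 1.04. Only 2 of these 8 genes were below 0, with a median of 0.15. Krt18 was the 1 of 8 trophoblast genes called. Hnf4a was not called without ESC 3 (adjusted p = 0.06), nor Lrp2 without ESC 1 or 2iL 2 (adjusted p up to 0.094). Tbx6 was not called without ESC 1, ESC 2, ESC 3 or 2iL 2 (adjusted p up to 0.15), nor Tubb3 without ESC 1, ESC 2, 2iL 2 or 2iL 3 (adjusted p up to 0.1). Zic1 was not called without any of the 6 arrays (adjusted p up to 0.11), nor Thy1 without ESC 1, ESC 3, 2iL 2 or 2iL 3 (adjusted p up to 0.073).

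The signals of the marker lists were also summed on each array. For 15 fibroblast or feeder markers the sum was 3.11 to 3.80 times the 75th percentile in HRHnG and 3.60 to 4.87 in 2iL, for 10 neural markers 5.78 to 8.60 and 8.80 to 19.9, and for 15 extraembryonic endoderm markers 34.8 to 53.8 and 16.2 to 39.0. For 8 trophoblast markers it was 2.55 to 3.13 and 2.88 to 4.89, and for 8 mesendoderm markers 8.36 to 13.2 and 9.73 to 12.1. The 10 stem cell markers, all well above background on all 6 arrays, summed to 705 to 897 and 873 to 1015. Stem cells express some of these markers themselves, and the part of other cells in the differences above was not tested.

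Genes that followed the line on all 29 arrays were few. The 19 HRHnG arrays and the 10 arrays of other lines did not overlap for 36 of the 14123 genes (0.255%), 19 of them called, and all 36 were lower in HRHnG. The widest gap was that of Ngdn, a ribosome assembly factor of chromosome 14, with 4.50, 4.82 and 4.79 in ESC against 5.61, 6.21 and 5.45 in 2iL and a gap of 0.39 over all arrays. Itfg2, of a complex upstream of mTOR, had 1.32, 0.93 and 1.30 against 2.28, 2.39 and 2.22 and a gap of 0.05. Others were the helicase Ddx21, the polymerase subunits Polr1c and Polr3b, the cohesin subunit Rad21 and the mitochondrial protein Ndufs8, with differences of -1.54 to -0.44. A second Ddx21 probe differed by -0.46. Rad21, Ndufs8 and Polr1c were not called under any other scaling. Under the other scalings 9 to 14 genes were separated. By array set, 15 against 14 arrays, 81 genes (0.574%) were separated, 45 of them called. These counts set mixed cell states against each other, and each gene's value is a description. Ddx21 was not called without ESC 1, ESC 2, ESC 3, 2iL 1 or 2iL 2 (adjusted p up to 0.2), nor Polr1c without ESC 1, ESC 2, ESC 3, 2iL 1 or 2iL 2 (adjusted p up to 0.2). Rad21 was not called without ESC 1, ESC 2, ESC 3, 2iL 2 or 2iL 3 (adjusted p up to 0.11), nor Ndufs8 without ESC 1, ESC 2, ESC 3, 2iL 2 or 2iL 3 (adjusted p up to 0.092).

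Within the second array set, the lines other than HRHnG were set against each other over the 7 arrays of 2iL and NACL, with the medium as a covariate. Of 13766 autosomal genes, 0 were called between HVMC (3 arrays) and the E14 lines (4 arrays) by limma (0%), with 843 at an unadjusted p under 0.05 and a smallest adjusted p of 0.69. The largest difference upward among the genes named by rule was Cd99, 2.06 ± 0.62 higher in HVMC, and the largest downward was the receptor Fcgr2b, -2.15 ± 0.40. Csf2ra, a cytokine receptor subunit, had 2.89, 2.89 and 2.63 in HVMC, against 1.38, 0.67, 1.07 and 1.66 in the E14 lines. With each array centred on its median, 46 genes were called. Since chromosomes 6 and 8 did not follow these line labels, the comparison holds for the arrays as labelled.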

How the data were processed

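RNA extracted with RNeasy from cells lysed on plates was labelled with the dye Cy3 for single-colour Agilent arrays, per the labels' protocols. The deposited scanner files hold intensity, the signal that the scanner software had already corrected for background, per the file headers; its version is 11.0.1.1 for ESC and 12.0.1.1 for 2iL there, and Agilent Feature Extraction 9.1 per the submitters' processing notes. The authors' series matrix holds processed log2 values per the deposited table, which served as an alternative.

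Outlier-flagged and control spots were left out, spots of a probe averaged, and log2 values taken minus the 75th percentile of each array. Of 55681 probes, 27669 had a gene name, and each of 20972 symbols was given by the probe with the highest mean log2 level over all 29 arrays, which can be the dimmer one on the 6 arrays compared. With limma 3.58.1 (R 4.3.3), 1 model of 9 group means over all 29 arrays tested 14670 genes, 14123 of them autosomal, with Benjamini-Hochberg adjustment and a threshold of 0.05; SE is that of the fit. Non-autosomal genes were fitted and are not described. The scripts were tested on simulated data.

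Named genes are called genes without overlap between groups: the 12 highest and 12 lowest differences, the 6 largest lower limits of fold per direction, up to 4 called members per list, all imprinted, naive, core and DNA methylation genes, and the widest gaps by line. List members outside this rule, such as Lef1, Slc22a18, Zscan4f, Otx2, Nodal and Mki67, were named after their values were seen. Some genes that meet the rule are not reported here. Members and lists were chosen with earlier results of these data known. Alternatives were median centring, quantile normalization, normexp (offset 50) on the median signal and background, since a mean signal was not used here, the series matrix, other filters, the 6 arrays alone, blocks for replicate number and slide, a mean over probes and leaving out each array. A block for scan day, chromosome shares without single arrays and separation under other scalings were added after seeing the data. Same-numbered ESC and 2iL arrays did not deviate together (correlations 0.05, -0.11 and -0.09), so the numbers were not used as pairs.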

Additional observations from a re-analysis of the deposited data

How the results depend on the processing

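The 1706 calls were 961 with median centring, 927 with the 6 arrays alone and 973 with slide as a random block; leaving out each array gave 821 to 1466. Genes called higher, 415, were 53 with median centring, 761 with normexp, 813 in the series matrix, 270 without a filter, 248 with the 6 arrays alone, 248 with the slide block and 186 to 350 without single arrays. Genes called lower, 1291, were 679 with the 6 arrays alone, 725 with the slide block and 616 to 1116 without single arrays. The same-numbered arrays did not pair, and a block for replicate number gave 184 calls, 24 higher and 160 lower. A block for scan day, added after seeing the data, gave 1492. The other filters and the mean over probes gave 1212 to 1592 calls, quantile normalization 1773, normexp 1969 and the series matrix 1836. Separation by line was 36 genes, and 9 with median centring, 13 after quantile normalization, 14 with normexp and 14 in the series matrix; by array set it was 81, and 40, 98, 95 and 98. HVMC minus the E14 lines had 46 calls with median centring and 0 in all other settings. No called gene among the 168 named turned its sign under any alternative. Genes that were not called did: with median centring Nr5a2 (-0.19), Stat3 (-0.14), Tbx3 (-0.070) and Gnas (-0.042); after quantile normalization Tcl1 (0.090), Sox2 (0.094), Zfp281 (0.13), Sfmbt2 (0.069) and Uhrf1 (0.019); with normexp Tcl1 (0.13), Sox2 (0.082), Zfp281 (0.025), Meg3 (0.19), Phlda2 (-0.13), Sfmbt2 (0.066) and Uhrf1 (0.15); in the series matrix Nanog (-0.38), Tcl1 (0.14), Tfcp2l1 (0.11), Sox2 (0.093), Zfp281 (0.057), Meg3 (0.22), Sfmbt2 (0.36) and Uhrf1 (0.13). With the slide block Zfp281 was 0.012 and Sfmbt2 0.051, and with the mean over probes Meg3 was 0.051, Sfmbt2 1.21 and Uhrf1 0.051. Without single arrays Dppa4 ranged from -0.48 to 0.057, Foxd3 from -0.36 to 0.098, Magel2 from -0.29 to 0.14, Meg3 from -0.80 to 0.37, Mirg from -0.92 to 0.078, Nr5a2 from -0.020 to 0.14, Phlda2 from -0.70 to 1.56, Sfmbt2 from -0.64 to 0.39, Sgce from -1.57 to 0.049, Sox2 from -0.15 to 0.021, Tdg from -0.19 to 0.020 and Zfp281 from -0.19 to 0.086. Among the 168 named genes, 76 that were called lost their call with the replicate block and 49 without 2iL 2. Of all 1706 called genes, only 160 were called in the same direction with the replicate block and 741 without 2iL 2. The causes of these changes were not tested. Probes near background, such as those of Sox17 and Kcnq1ot1, limit what can be read from single genes.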

Other observations

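For 4 called genes a second tested probe was called in the opposite direction. Usp17la, a deubiquitinase of a family with near-identical copies, was 1.13 higher in HRHnG on its brightest probe and -4.34 on another. Prmt6, an arginine methyltransferase, differed by -1.92 and 0.88, Rbm33, an RNA-binding protein, by -0.84 and 1.37, and Pdlim5, a scaffold of the cytoskeleton, by -0.94 and by 1.27 and 1.60 on 2 other probes. Of 432 called genes with another tested probe, 139 had one called in the same direction.

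The ESC arrays were more alike than the 2iL arrays. Across genes, which are not independent replicates, the correlation was 0.978 to 0.989 among ESC arrays, 0.962 to 0.979 among 2iL arrays and 0.939 to 0.964 between them. The median SD of a gene was 0.207 in HRHnG and 0.310 in 2iL, and 31.9% of autosomal genes had the larger SD in HRHnG.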
